A study of Mus musculus with 2 samples.

Results

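The microRNAs described here carry the late catalogue numbers miR-6896 to miR-7093, with any letter and either arm. A name became a member when at least 1 read stood on it in either library, so the members were chosen by the measured counts themselves. The deposited catalogue lists 400 names in this range, on 200 hairpins. Of these, 153 names on 134 hairpins had a read and 247 names had none. The members made up 15.8% of the 967 names detected among 1909.

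The study compared cultured vascular smooth muscle cells of diabetic and control mice by small RNA sequencing. Control cells came from db/+ mice, which carry 1 mutant copy of the leptin receptor gene (labelled Lepr+/-). Diabetic cells came from db/db mice on the background BKS.Cg-m+/+Leprdb/J, which lack a working leptin receptor and become obese and diabetic. All mice were male and 10 to 12 weeks old, and all cells were grown from thoracic aorta in DMEM/F-12 with 10% serum and antibiotics. There was 1 library per group, and the number of mice behind each culture is not given in the sources used here. Every difference below therefore compares 2 libraries, with no replicate check and no p-value.

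A microRNA is usually cut out of a long transcript by Drosha and then trimmed by Dicer, which leaves a 5p and a 3p arm of the hairpin, named for the side they come from. A mirtron is a microRNA hairpin that is a whole short intron, so that splicing and debranching stand in for Drosha. In a tailed mirtron only 1 end of the hairpin is set by a splice site, and the rest of the intron is removed by nucleases. An intron starts at its donor site and ends at its acceptor site, where a pyrimidine-rich stretch leads up to a closing AG. The mature microRNA recognises targets mainly through its seed, bases 2 to 8.

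The mature sequences of the abundant members show what most of them share, a 5p arm rich in G. They are given 5′ to 3′ from RefSeq (GRCm38.p6), with the seed in capitals, for 9 of the 12 most abundant members. Sequences were matched by name for 137 of the 153 members. miR-7040-5p, miR-6905-5p and miR-6950-5p are named only.
miR-6960-5p: cAGGAUGAgaagaguuuggcug
miR-7073-5p: uGGGGGAAuugaaagacuauga
miR-6986-5p: aGGGGAGCuagguagaaagcca
miR-6933-5p: uGGCGGCAgucaggauaccugu
miR-6916-5p: cAGGAGGAuggagaugaguca
miR-6995-5p: cUGGGAGUagaagggggaaacca
miR-7024-5p: uUGGGGGAuggguugcuuggc
miR-7070-5p: gUGAGGGGagcugaggcagga
miR-6997-5p: uAACAGGCuggagaggugcaga

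The 3p members miR-7018-3p and miR-6967-3p and 2 hairpins show the link to splicing as annotated. In these 3p arms the last 2 bases are in capitals, and both arms close with AG.
miR-7018-3p: ucacccugcugccggcuugcAG
miR-6967-3p: ucaucuuuaucucuccccAG
In the hairpins the 5p arm is in capitals. That of miR-6960 begins 5 bases into the hairpin, whereas that of miR-6944 begins at the first base, which is also the first base of the intron.
miR-6960: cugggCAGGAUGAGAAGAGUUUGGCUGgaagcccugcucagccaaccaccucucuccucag
miR-6944: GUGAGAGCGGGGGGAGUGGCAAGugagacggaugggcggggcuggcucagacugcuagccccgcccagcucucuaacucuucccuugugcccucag

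The libraries held 25915732 (db/+) and 24295112 (db/db) microRNA counts, so 1 count was worth 0.0386 and 0.0412 counts per 1000000 microRNA counts (CPM). A count of 0, which allows up to 3 counts, allowed 0.116 CPM (db/+) or 0.123 CPM (db/db). Reads carry no molecular identifiers, so floors and intervals cover counting error only. The smooth muscle microRNAs miR-143 and miR-145 summed to 1656 CPM (db/+) and 1567 CPM (db/db), with 4 of 4 names detected. Markers of blood cells summed to 0.695 and 0.659 CPM with 2 of 4 names detected, endothelial markers to 0.270 and 2.92 CPM, and epithelial markers to 0.232 and 0.864 CPM. Of the 2 skeletal muscle markers, miR-206-3p had 2473 and 2765 CPM, whereas miR-133a-3p had 1 count in each library. Their part in the results was not tested. In such bulk RNA, fewer cells of a type and less RNA per cell cannot be told apart.

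The members were a wide but shallow set. They held 803 counts (31 CPM) in db/+ cells and 751 (30.9 CPM) in db/db cells. The ratio of db/db over db/+ was 0.998, with an exact conditional 95% interval of 0.902 to 1.10, so the sums did not differ beyond counting error. In each library the members took 0.00310% and 0.00309% of all counts. The median detected member had 3 counts in each library, against 19 for all detected names.

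Detection was spread over many names. A read was found on 122 members in db/+ cells and on 112 in db/db cells. Both libraries detected 81 members, 41 were seen in db/+ only (26.8%, against 13.9% of all detected names) and 31 in db/db only (20.3%, against 8.89%). The members were thus seen in 1 library more often than detected names in general, and their counts were also lower. Of the 72 members seen in 1 library, 42 had 1 read in all, 23 had 2 or 3, and the highest had 6. The 42 members with 1 read in all, just inside the rule, comprised 27 in db/+ and 15 in db/db. The names just outside it were the 247 with no read.

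Across the catalogue, 38.2% of names in the range had a read, against 50.7% of all names. Names numbered below 1000 were detected in 67.3% of cases, those from 1000 to below the range in 37.96%, and those above the range in 32.7%. These shares are descriptions of what chose the members.

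**Figure D1:**
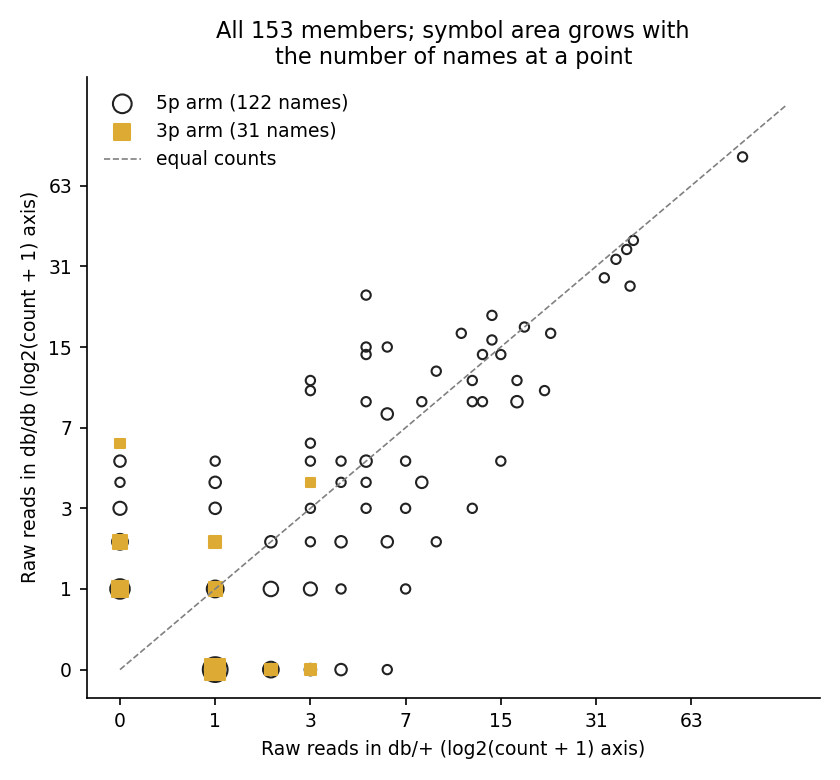
Raw read counts of all 153 members in the db/+ library (horizontal axis) and the db/db library (vertical axis), both on a log2(count + 1) scale, with circles for 5p arms, squares for 3p arms, symbol area growing with the number of names at a point, and a dashed line at equal counts. Most members lie at a handful of counts, and miR-6960-5p (92 and 81 counts) stands alone at the upper right.

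A small number of members carried much of the signal. The 12 most abundant held 375 (46.7%, db/+) and 348 (46.3%, db/db) counts, and 40 members with at least 10 counts in all held 1232 of the 1554 counts (79.3%). All 40 were seen in both libraries. The most abundant was miR-6960-5p, with 92 (db/+) and 81 (db/db) counts, and it ranked only 292 among all detected names. It was the only member with 50 or more counts in a library, and its ratio was 0.939 (interval 0.688 to 1.28). Its hairpin lies on chromosome 15 at 99080805 to 99080865 (GRCm38, plus strand), in an intron of Troap, which encodes a cell adhesion and spindle protein.

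The next 5 members had 26 to 41 counts per library. miR-7073-5p had 41 (db/+) and 39 (db/db) counts, from an intron of Cnot1, the scaffold of the complex that shortens mRNA tails. miR-7040-5p had 39 and 36 counts, from an intron of Loxl3, a lysyl oxidase-like enzyme that cross-links collagen and elastin. These 3 leading members had nearly equal counts in the 2 libraries. miR-6986-5p had 36 and 33 counts, from Rce1, a protease that processes prenylated proteins such as Ras. miR-6933-5p had 40 and 26 counts, from Pgs1, an enzyme of mitochondrial phospholipid synthesis. miR-6916-5p had 33 and 28 counts, from Esyt1, which tethers the endoplasmic reticulum to the plasma membrane. The widest gap of these, that of miR-6933-5p, gave a ratio of 0.693 with an interval of 0.406 to 1.16, which includes 1.

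The other 6 of the 12 had 29 to 39 counts in all. miR-6995-5p (Sh3pxd2a, a scaffold of invasive cell protrusions) had 22 (db/+) and 17 (db/db) counts. miR-7024-5p (Nelfa, a subunit of the factor that pauses RNA polymerase II) had 18 and 18. miR-7070-5p (Fbxw9, an F-box protein) had 14 and 20. Each of these 3 had a ratio whose interval included 1. miR-6905-5p (Med23, a Mediator subunit) had 21 and 10 counts, a ratio of 0.508 with an interval of 0.214 to 1.13. miR-6997-5p (Sptan1, a spectrin of the membrane skeleton) had 14 and 16. miR-6950-5p (Loxl2, another lysyl oxidase-like enzyme) had 5 and 24. Of the 12, 11 had an interval that included 1, and miR-6950-5p was the exception. It tied for the last place with miR-7084-5p (15 and 14 counts, ratio 0.996), which would leave no exception.

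**Figure D2:**
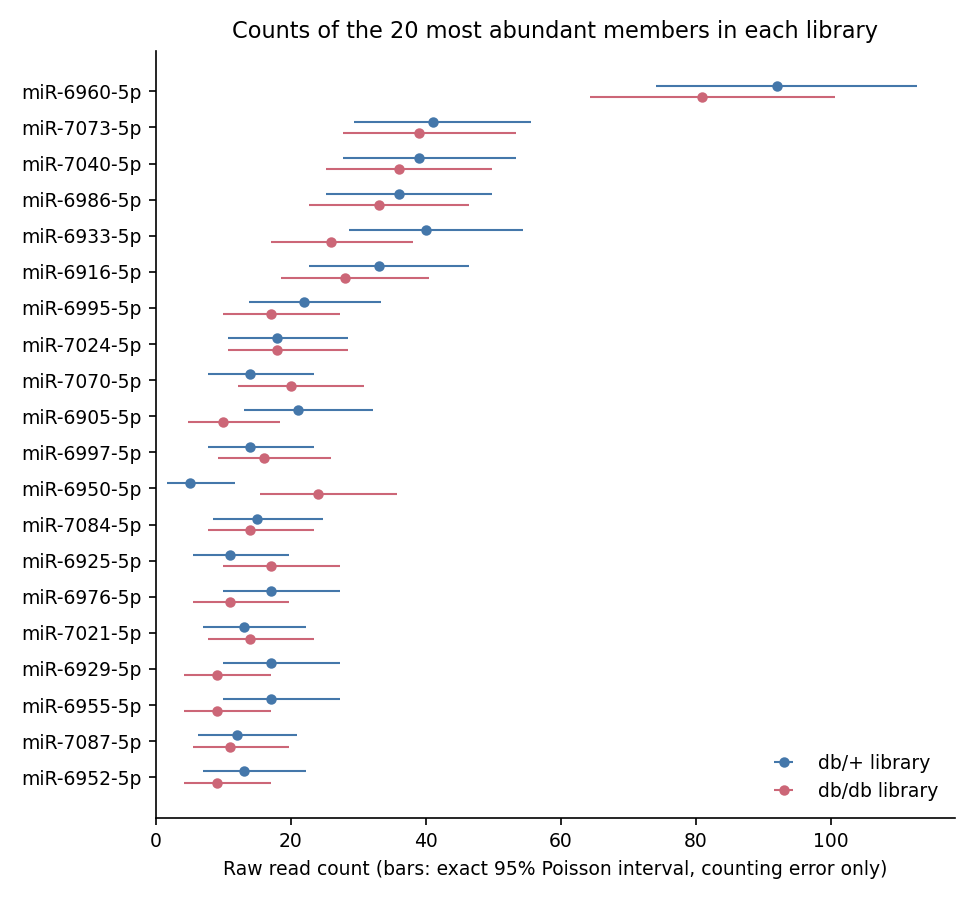
Raw read counts of the 20 most abundant members in the db/+ and db/db libraries, with bars for the exact 95% Poisson interval of counting error. miR-6960-5p is highest at 92 and 81 counts, and miR-6950-5p is the member whose bars lie apart, at 5 and 24 counts.

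Single ratios were set by few reads. Of the 40 members with at least 10 counts in all, 35 had an interval that included 1, 4 lay above it and 1 below, and 30 lay within 2-fold. miR-6950-5p had a ratio of 5.12 (interval 1.92 to 17.2). Its hairpin lies on chromosome 14 at 69692248 to 69692320. miR-7059-5p, from an intron of the lysosomal gene Cln3, had 5 (db/+) and 15 (db/db) counts, a ratio of 3.20 (1.11 to 11.3). miR-6930-5p, from the mitochondrial carrier gene Slc25a39, had 5 and 14, a ratio of 2.99 (1.02 to 10.6). In all 3 the db/db count was the higher. miR-7016-5p, from Tmem39b, had 3 and 11, a ratio of 3.91 (1.03 to 21.8). miR-6998-5p, from Fubp3, went the other way with 12 and 3, a ratio of 0.267 (0.0483 to 0.988). These intervals are not adjusted for the number of members examined.

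By the size rule, at least 2-fold with at least 10 counts in a library, 6 of 29 members were higher in db/db (20.7%, against 8.32% of the 553 names past that count). They were the 4 named above with ratios over 1, miR-6926-5p (6 and 15 counts) and miR-6942-5p (3 and 10). The rule found 2 lower, miR-6998-5p and miR-6921-5p (15 and 5), which is 6.9% against 16.5% of all names. The median log2 ratio of the 29, with 0.5 counts added, was -0.02, against -0.14 over the 553. All 8 members passed the 10-count floor only through the library where they were higher, and the names past it include far more abundant microRNAs, so nothing is read from these shares.

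The members seen in 1 library gave only rough limits. Their folds are set against the floor of 3 counts, with the other count taken as exact. miR-6945-3p had 0 (db/+) and 6 (db/db) counts, 2.13-fold higher in db/db by this measure, and its exact interval began at 1.26. miR-7075-5p and miR-7078-5p each had 0 and 5 counts, 1.78-fold higher, with an interval from 0.977 that included 1. In the other direction, miR-7008-5p had 6 and 0 counts, 1.87-fold lower, with an interval up to 0.906. miR-6911-5p and miR-7017-5p each had 4 and 0 counts, 1.25-fold lower, with an interval up to 1.62 that included 1.

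The members were read almost wholly from the 5p arm. There were 122 members on 5p arms with 1495 counts and 31 on 3p arms with 59 counts. The 3p share of member counts was 3.49% in db/+ (exact binomial interval 2.33 to 5.0) and 4.13% in db/db (2.82 to 5.81), so it did not differ between the libraries beyond counting error. Summed 5p counts were 775 and 720, a ratio of 0.991 (0.894 to 1.10), and summed 3p counts were 28 and 31, a ratio of 1.18 (0.685 to 2.04). A read was found on 61% of the 200 5p names in the range but on 15.5% of the 200 3p names.

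The arms of older names were detected more evenly. Shares of counts in this paragraph are over names labelled 5p or 3p and leave out names without an arm. Among names numbered below 1000, 72.0% of 5p names and 72.8% of 3p names had a read, and 3p arms held 73.9% of the counts. From 1000 to below the range the shares were 55.2% and 44.1%, and 3p arms held 5.6% of the counts, against 3.8% in the range. For let-7 names the 3p share of counts was 0.0119%, so a lean of counts to the 5p arm was not particular to the range. Above the range 28.7% of 5p names and 27.9% of 3p names had a read. There, 3p arms held 276 counts and 5p arms 445, a 3p share of 38.3%, while the whole class had 490 (db/+) and 483 (db/db) counts. The hairpins above the range that end at a splice acceptor, described below, had 63 counts on 5p and 2 on 3p arms (3.08%). For all such hairpins outside the range the 3p share was 18.6%. No test was made of these differences, since names are not replicates.

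**Figure D3:**
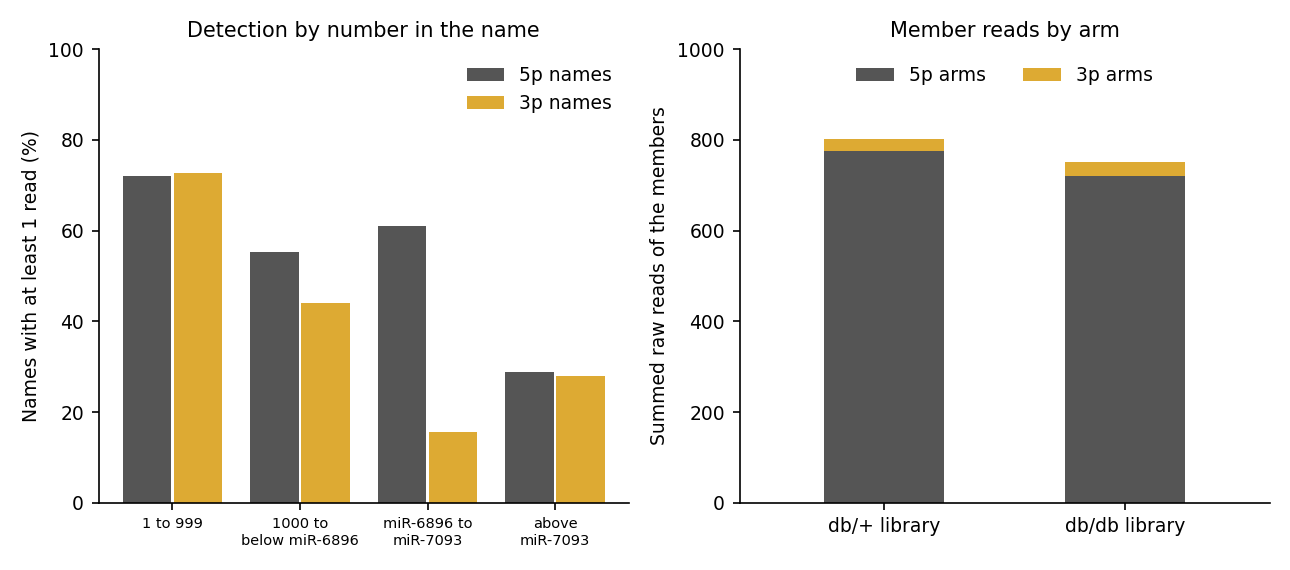
The left panel gives the percent of 5p and 3p names with at least 1 read in either library, by the number in the miR name, and the right panel gives the summed member counts by arm in each library. The range miR-6896 to miR-7093 shows 61% of 5p against 15.5% of 3p names, and 3p arms add 28 and 31 counts to the 775 and 720 of 5p arms.

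Of the 134 detected hairpins, 103 were seen on the 5p arm only, 12 on the 3p arm only and 19 on both. Among the 19, the 5p arm had more counts in 12, the 3p arm in 2, and 5 were equal. miR-6933 had 66 counts on 5p and 2 on 3p over both libraries. miR-7024 had 36 and 1, miR-6952 had 22 and 1, miR-6921 had 20 and 1, miR-6967 had 17 and 3, miR-6944 had 14 and 2, and miR-6984 had 12 and 1. The better counted hairpins thus leaned to the 5p arm. miR-6970 had 8 and 2, miR-6962 had 8 and 1, miR-6911 had 4 and 2, miR-7071 had 3 and 1, and miR-7019 had 2 and 1. miR-6931 was equal at 2 and 2, and miR-6940, miR-6958, miR-7025 and miR-7074 had 1 and 1. Only miR-7018, with 1 count on 5p and 7 on 3p, and miR-6900, with 1 and 3, had more on 3p.

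The label splice-linked was set beside intron positions, which the counts do not use. The hairpin ends are those of the annotation and were not measured from reads. In the range, 139 of 176 5p arms with a sequence began 5 bases into the hairpin. The positions, and the closing AG or opening GU that go with them, thus describe the catalogue entries and do not test how the members are made. All 200 hairpins of the range overlapped an intron of a protein-coding gene on the same strand in the GENCODE M21 annotation (GRCm38). Of the 134 detected, 126 (94.0%) ended exactly at the last base of the intron. Among them, 8 also began at its first base and so were whole introns, which left 118 with a tail on the donor side. Another 2, miR-6977 and miR-6936, abutted the donor site only. In all, 128 of the 134 (95.5%, exact binomial interval 90.5 to 98.3) abutted an intron end, and acceptor hairpins held 1484 of the 1554 counts. Some transcript placed 20 of the detected hairpins inside an exon, among them the whole introns miR-6970, miR-6958 and miR-7058.

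The 66 hairpins with no read had the same placement, 61 of them (92.4%) ending at the acceptor. The position was thus shared by read and unread hairpins of the range. Outside the range, 25 of 550 detected hairpins (4.55%) ended at an acceptor. The share was 6 of 60 (10%) for numbers above the range and 19 of 490 (3.88%) below it.

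The 8 whole introns were miR-7070, miR-6944, miR-6970, miR-7018, miR-7060, miR-6958, miR-7058 and miR-7091, with 77 counts together. miR-7070 fills an intron of 86 bases in Fbxw9 on chromosome 8 at 85062086 to 85062171. miR-6944 fills one of 96 bases in Dbn1, which encodes the actin-binding protein drebrin. In the range, 11 of the 12 5p arms of whole-intron hairpins with a sequence began at the first intron base and 10 began with GU, the donor dinucleotide.

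Tailed hairpins sat in introns of very different length. Where transcripts differed, the intron with the nearest acceptor and then the nearest donor was used, so tails are the shortest annotated at that acceptor. The introns of the 126 detected acceptor hairpins, whole introns included, ranged from 67 to 19696 bases, with a median of 443. The median was 610 for the 61 acceptor hairpins with no read. All 134 detected hairpins themselves had a median of 66 bases (52 to 137). Among acceptor hairpins, 42 of 126 detected (33.3%) and 14 of 61 undetected (23.0%) lay in introns of at most 150 bases. The 12 most abundant members lay in introns of 86 to 4794 bases. miR-6960 follows a tail of 1902 bases and miR-7073 one of 1750, whereas miR-7040 has a tail of 64 bases, miR-6986 one of 58 and miR-6916 one of 27.

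**Figure D4:**
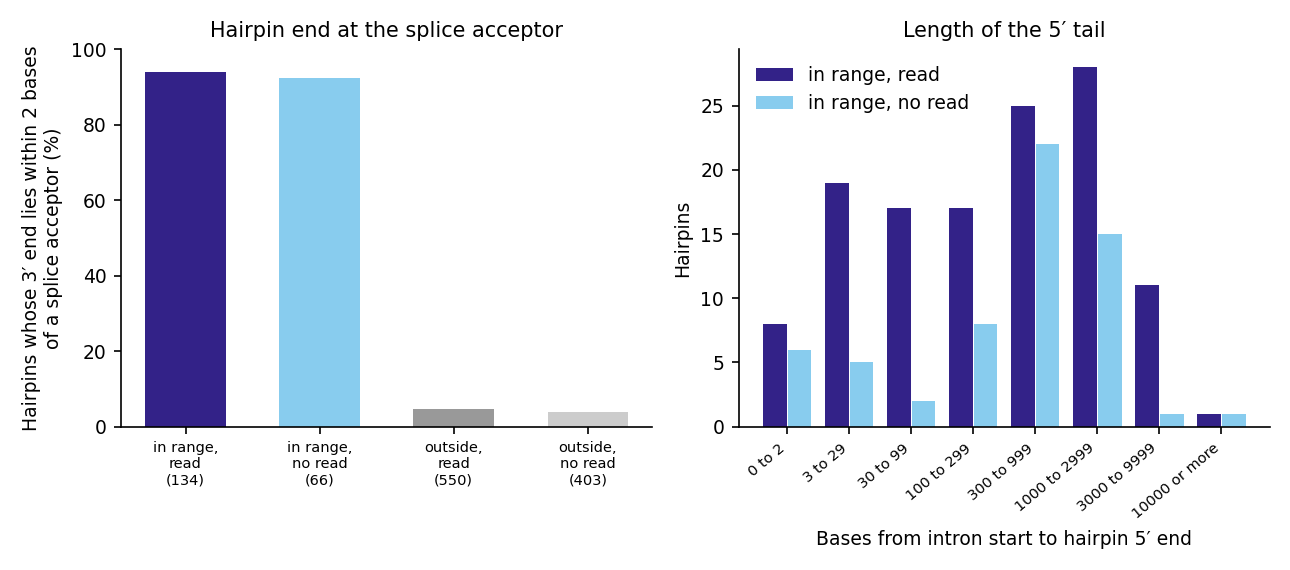
The left panel gives the percent of hairpins whose 3′ end lies within 2 bases of an intron acceptor, for read and unread hairpins inside and outside the range, and the right panel counts acceptor hairpins of the range by the bases between intron start and hairpin. Inside the range the shares are 94.0% and 92.4%, outside it 4.55% and 3.72%, and the tails spread over every length class.

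Of the 6 detected hairpins at neither intron end, 4 (miR-6950, miR-6925, miR-7029 and miR-6904) ran 7 bases past the acceptor. miR-7025 (Pdgfra, a growth factor receptor) began before the donor site and spanned it. miR-7036b (Add1, a cytoskeletal adducin) lay inside its intron, 237 bases from the donor site and 23955 from the acceptor. miR-6950 and miR-6925 are thus among the well counted members without the usual end.

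The arms also differed in base composition. In 109 5p members with a sequence, 44.6% of bases were G, against 43.7% in range 5p names with no read and 30.02% in other detected 5p names. The run GGG, searched in the mature strand, stood in 80 of them (73.4%), in 79.1% of the unread names and in 30% of the others. In 28 3p members, C and U made up 68.2% of bases, against 72.5% in unread names and 52.8% in other detected 3p names. The letters AG closed 19 of the 28 (67.9%), 80.4% of unread names and 23 of 290 others (7.93%). By coordinates, 18 of the 28 ended at the last base of the intron.

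**Figure D5:**
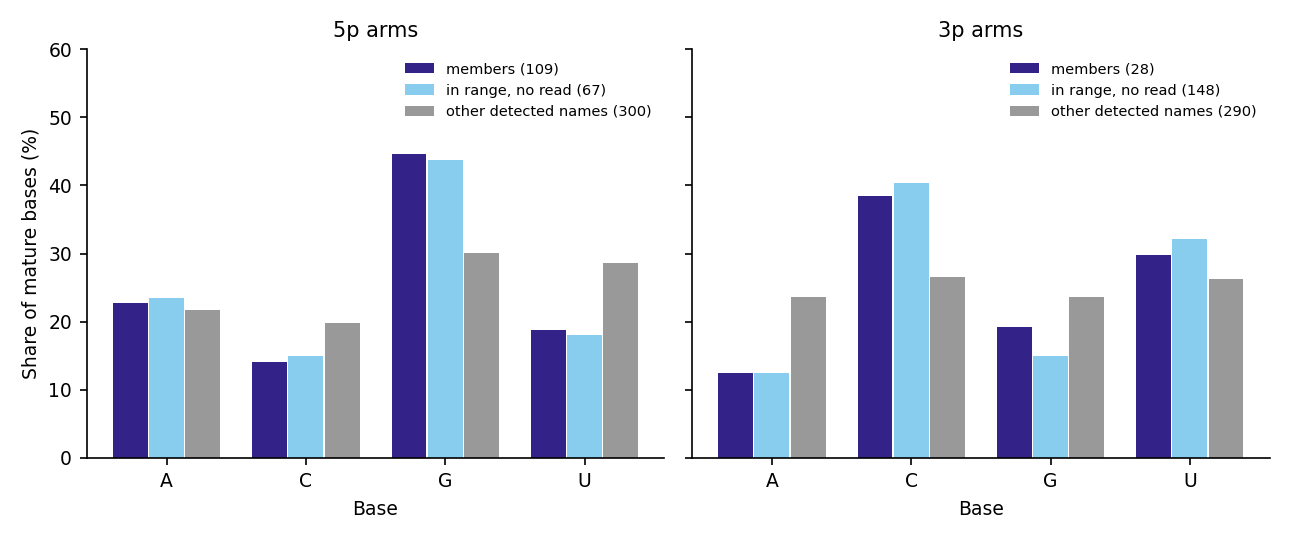
Share of each base, in percent of mature bases, in 5p arms (left) and 3p arms (right) of members, of range names with no read and of other detected names. G makes up 44.6% of bases in member 5p arms against 30.02% in other detected 5p arms.

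None of the 137 mature member sequences was identical to, held within, or held that of another name with a sequence. miR-6967 has 2 loci on chromosome 17, in Kifc1 and Kifc5b, each ending at an acceptor, and its reads cannot be assigned to one of them.

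The members had 125 distinct seeds, and 10 seeds were held by more than 1 member (22 members in all). The seed of miR-6960-5p was shared with miR-7093-5p, and together they had 99 (db/+) and 84 (db/db) counts. miR-6916-5p (33 and 28) and miR-6942-5p (3 and 10) shared AGGAGGA with 36 and 38 counts together. miR-7034-5p and miR-7071-5p shared CCGGGAG with 14 and 10. miR-6922-5p, miR-6993-5p and miR-7008-5p shared GUGGGAG with 18 and 5, and miR-6911-5p, miR-7079-5p and miR-7028-5p shared GGGCUGA with 7 and 1. miR-7012-5p and miR-7057-5p shared AGGAGAG with 5 and 0. miR-6967-5p and miR-7016-5p shared AGGGAGG with 11 and 20, and miR-7005-5p and miR-6975-5p shared CUGGGGA with 1 and 7, both with more counts in db/db. miR-7075-5p and miR-7030-5p shared GGGGAGG with 1 and 6, and miR-6907-5p and miR-7019-5p shared UCUGGGA with 0 and 6. Shared seeds thus showed no common direction. Beyond the range, 12 members shared a seed with another detected name. Among them, miR-6921-5p shared GAGGGGC with miR-423-5p, and miR-6926-5p shared CAGUGGG with miR-194-2-3p.

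The 134 detected hairpins lay in 131 host genes on 19 chromosomes, most on chromosome 11 (15 hairpins), 5 (13) and 19 (12). There were 3 hosts with 2 detected hairpins. Srebf1, which encodes a regulator of lipid synthesis, holds miR-6921 and miR-6922, with 20 (db/+) and 10 (db/db) counts together. Skiv2l, which encodes an RNA helicase, holds miR-6970 and miR-6971 (8 and 4). Cmip, which encodes an adaptor protein, holds miR-7077 and miR-7078, with 0 and 7 counts. Host transcripts were not measured here.

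Hosts were also matched to 3 short lists of gene symbol beginnings, which leave out many genes of the same kinds. A match by symbol beginning can also take in genes of other kinds, as with Grina and Actr8 below. For comparison, 134 of the 200 hairpins of the range were detected. The matrix list (such as Lox, Lam and Hspg2) matched 4 hosts, whose hairpins were all detected, with 49 (db/+) and 68 (db/db) counts. They were miR-7040 (Loxl3), miR-6950 (Loxl2), miR-7018 (Hspg2, the basement membrane proteoglycan perlecan, 4 and 4 counts) and miR-7005 (Lama5, a laminin chain, 1 and 4). The gap in the sum came from miR-6950. Not on the list, miR-7014 in Ecm1, a matrix protein, had 4 and 5 counts, and miR-6906 in Spock2, a matrix proteoglycan, had no read. The contractile and cytoskeletal list (such as Act, Myh and Itg) matched 4 hosts, and 2 were detected, miR-6963 (Itga5, an integrin, 4 and 2) and miR-6935 (Actg1, a cytoplasmic actin, 0 and 1). Those in Myh3 and Actr8 had no read. The list does not hold the cytoskeletal hosts Sptan1, Dbn1 and Add1 described above. The list for blood, liver or neural tissue matched 2 hosts, Grina (miR-6953, 2 and 1 counts) and Slc17a7 (miR-7055, no read). Outside it, miR-6978 in C3 and miR-6972 in Cfb, both complement genes, and miR-7058 in Lat, a T cell adaptor, had 1 count each. Those in Csf1r, a macrophage receptor gene, and Cpa3, a mast cell protease gene, had no read. The hosts outside the lists were picked after their values were seen. miR-6976-5p, from Srf, a master transcription factor of smooth muscle genes, had 17 and 11 counts and was picked after its values were seen.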

How the data were processed

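Small RNA libraries of cultured aortic smooth muscle cells were analysed, 1 from db/+ and 1 from db/db mice. RNA was taken up on small-RNA-retaining columns and sequenced on the Illumina platform, per the labels. The deposited values are read counts for each mature microRNA name and TMM-normalized reads, per the file headers. The deposited normalized reads were rounded to whole numbers, so they were treated as a score and used in 1 alternative only. Novoalign, edgeR and mm10 are named in the submitters' processing notes without roles or versions. Trimming, mismatch limits, the catalogue and the handling of reads matching several names are not given in the sources used here.

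Counts were divided by the total microRNA count of the library (25915732 and 24295112) and given per 1000000. Ratios carry exact conditional (Clopper-Pearson) 95% intervals and shares exact binomial ones. With 1 library per group no test across samples was possible, and none was made across names, since names are not replicates. The size rule required at least 10 counts in a library and a 2-fold ratio. Named members were the 12 most abundant, hairpins read on both arms, and the 3 highest seen in each library alone; others named are those past a stated interval, rule, list or position. Hairpins were placed with RefSeq GRCm38.p6 coordinates, or GENCODE M21 where RefSeq had none, an intron end being abutted at 2 bases or less. The members and lists were chosen with earlier results of these data known. Alternatives covered scaling, count floors, fold, single members and the abutting distance. Scripts ran in Python 3.11.15 with pandas 2.3.3, numpy 2.4.6 and scipy 1.17.1, and in R 4.3.3 with edgeR 4.0.16 and DESeq2 1.42.0, and were tested on simulated data.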

Additional observations from a re-analysis of the deposited data

How the results depend on the processing

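Of 38 alternatives, 20 left their result within its limit and 18 moved it. The limit was the interval of the main result or, for numbers of members, a 1.5-fold change. Some could not move a result. Leaving out shared sequences changed nothing because there were none, and matching db/db to its own depth returned its 112 members. The summed ratio ranged from 0.966 to 1.07 over 9 alternatives, all inside its interval of 0.902 to 1.10, and 7 lay above 1. Scaling by TMM gave 1.06 and by upper quartile 1.07. Requiring at least 2, 3, 5 and 10 reads left 78, 65, 44 and 22 members detected in db/+, and 79, 59, 42 and 23 in db/db. The higher number in db/+ (122 against 112) was thus seen at 3 and 5 reads but not at 2 or 10. At the depth of the db/db library, 119 members were expected in db/+. The share of range names detected fell to 27.8%, 21.5%, 15.5% and 10% at 2, 3, 5 and 10 reads. Counting names in place of reads, 3p arms made up 16.4% (db/+) and 15.2% (db/db). The size rule gave 0 higher and 0 lower members at 50 counts, where 1 member passed the floor, and 11 higher and 8 lower at 5 counts. At 1.5-fold it gave 5 lower. The abutting share changed only with the 10-count minimum, to 95.1%. No paired analysis was possible because there was only 1 library a group; with either one omitted, nothing remained to compare. Depth limits most members, whose median total over both libraries was 3 counts.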

Other observations

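Hairpins outside the range that also end at an intron acceptor included a few abundant ones. The 25 detected hairpins summed to 17735 counts in db/+ and 19914 in db/db. Most of these came from miR-382 (host transcript Mirg, 9154 and 12034 counts), miR-1981 (Marc2, 3778 and 3727) and miR-877 (Abcf1, 3566 and 3480). With miR-3102 (Arhgef17, 1000 and 497) these were the only ones of the 25 above the 173 counts of miR-6960, the highest of the members. miR-382 lies in a noncoding host transcript, unlike the protein-coding hosts of the members.

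Of 4 splice-derived microRNAs outside the range, miR-877, miR-1981 and miR-1224 were read mostly or wholly from the 5p arm, and miR-702 from both. The 5p arm of miR-877 gave a db/db over db/+ ratio of 1.04 (0.993 to 1.09), while its 3p arm was unread. miR-1981-5p had 3766 and 3714, a ratio of 1.05 (1.01 to 1.10), and miR-1981-3p had 12 and 13. For miR-702-5p there were 55 and 44 counts, and for miR-702-3p 47 and 16, a ratio of 0.363 (0.192 to 0.652). miR-1224-5p had 3 and 3 counts and miR-1224-3p had none.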
